A study of Mus musculus with 2 samples.

Results

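Solute carriers are membrane proteins that move sugars, amino acids, metals, ions, nucleotides and vitamins across the plasma membrane and the membranes of organelles. They were examined here as every gene of the deposited value table whose symbol in the platform annotation begins with Slc or Slco and a digit. The rule took 199 probes of 151 genes, out of 8116 named genes. Of these symbols, 3 name no transporter. They are Slc9a3r1, a scaffold protein that binds sodium-proton exchangers, Slc4a1ap, which is named for binding an anion exchanger, and Slc7a6os, a gene on the opposite strand at Slc7a6. The 148 others were placed in 13 classes by the substrate their family is known to carry, and 1 of those classes held only the urea transporter Slc14a1 (-0.35).

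The study measured 2 libraries of total RNA from lymph nodes of female mice kept free of specific pathogens. One was labelled type 1 invariant NKT cells, T cells with a receptor of restricted diversity that recognises lipids on CD1d, and the other conventional CD4 T cells, which recognise peptides on MHC class II. Magnetic or fluorescence-based sorting had purified the cells, and each library was hybridised to 1 Illumina bead array. The labels give no strain, age, number of pooled animals or sort gate. With 1 array in each group there was no replicate and no test between the groups, and the number of arrays limits the precision of every value.

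A resting T cell takes up little nutrient, and activation is known to raise glucose transporters, the large neutral amino acid transporter made of Slc7a5 and its heavy chain Slc3a2, and the glutamine transporter Slc1a5. Zinc is handled by opposed families. Slc39 proteins bring zinc into the cytosol, and most Slc30 proteins move it out of the cytosol, into organelles or out of the cell. Members of Slc25 carry metabolites across the inner mitochondrial membrane, and members of Slc35 carry nucleotide sugars into the endoplasmic reticulum and Golgi, where glycans are built.

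Values are the deposited log2 signals, whose 2 columns hold the same distribution when sorted (to within 0.000251), although the submitters' method is not known here. A difference of 1 is read as 2-fold, and each difference is the NKT-labelled library minus the CD4-labelled library. A gene with several probes is represented by its brightest one. A signal counted as detected at 7.83 or above, the lowest value with a detection p under 0.01 in the CD4-labelled library. For a gene detected in 1 library only, the fold is a lower bound against that level. The differences given for further probes of a gene are measured signals, also where a probe lay below that level. The only measure of error was the disagreement between probes of a gene. Over the 37 solute carrier genes with several probes, the pooled SD between the log2 differences that the brightest pair of probes of a gene gave was 0.71. For all 2161 such genes it was 0.59. Differences among animals, sorts or arrays lie outside this measure.

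The labels were compared with marker genes before the transporters. The marker lists were chosen with earlier results of these data known, so their counts are no independent check of the labels. All 9 listed genes of invariant NKT effector cells were 2-fold or more higher in the NKT-labelled library, and all 5 naive T cell genes measured were 2-fold or more lower. Of 8 general T cell genes, 0 were 2-fold apart. Among them Cd3e and Thy1 differed by 0.11 and 0.03, and Cd4 itself differed by -0.61. In bulk RNA, fewer cells of a type and less RNA per cell cannot be told apart. Cd8b1, which encodes a chain of the CD8 co-receptor, had a log2 signal of 9.33 in the NKT-labelled library and 15.60 in the CD4-labelled library. That goes against the second label. The other gene listed for CD8 T cells, Itgae, encodes an integrin chain and no part of CD8. Its signal was 7.76 in the NKT-labelled library, below detection, and 13.45 in the CD4-labelled library. Both libraries are therefore named by their labels, and each direction rests on them. The deposited non-normalized table gave other values for the NKT-labelled sample. Its columns for the 2 samples differed by at most 0.36 on the log2 scale at any solute carrier probe, so no member was 2-fold apart in that table, and every difference given here rests on the value table.

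Of the 151 genes, 104 were detected in both libraries, 12 only in the NKT-labelled library, 17 only in the CD4-labelled library and 18 in neither. Of the 133 genes detected in 1 or both, 13 were 2-fold or more higher in the NKT-labelled library, or 9.77%, beside 9.37% of all 7278 genes detected. Another 13 were 2-fold or more lower, also 9.77%, beside 10.3% of all genes detected. The median difference of the solute carriers was -0.13, and that of all genes was -0.07. Both shares lay near those of all genes, so the number of such genes does not set the family apart. The shares of all genes, 9.37% higher and 10.3% lower, are also the measure for each smaller count below. The differences ran from -1.90 to 2.33 among members detected in both libraries. Of the 133 detected genes, 58 lay above 0 and 75 below, beside 3358 above and 3917 below among all genes detected. Among the symbols of no transporter, Slc9a3r1 differed by -0.09 and Slc4a1ap by -0.40, and Slc7a6os was detected only in the CD4-labelled library. The genes detected in neither library were Slc1a6, Slc1a7, Slc2a6, Slc2a10, Slc4a3, Slc22a17, Slc24a1, Slc25a29, Slc25a35, Slc28a3, Slc35f6, Slc36a1, Slc36a2, Slc39a5, Slc45a2, Slc47a2, Slc49a4 and Slc66a1.

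**Figure D1:**
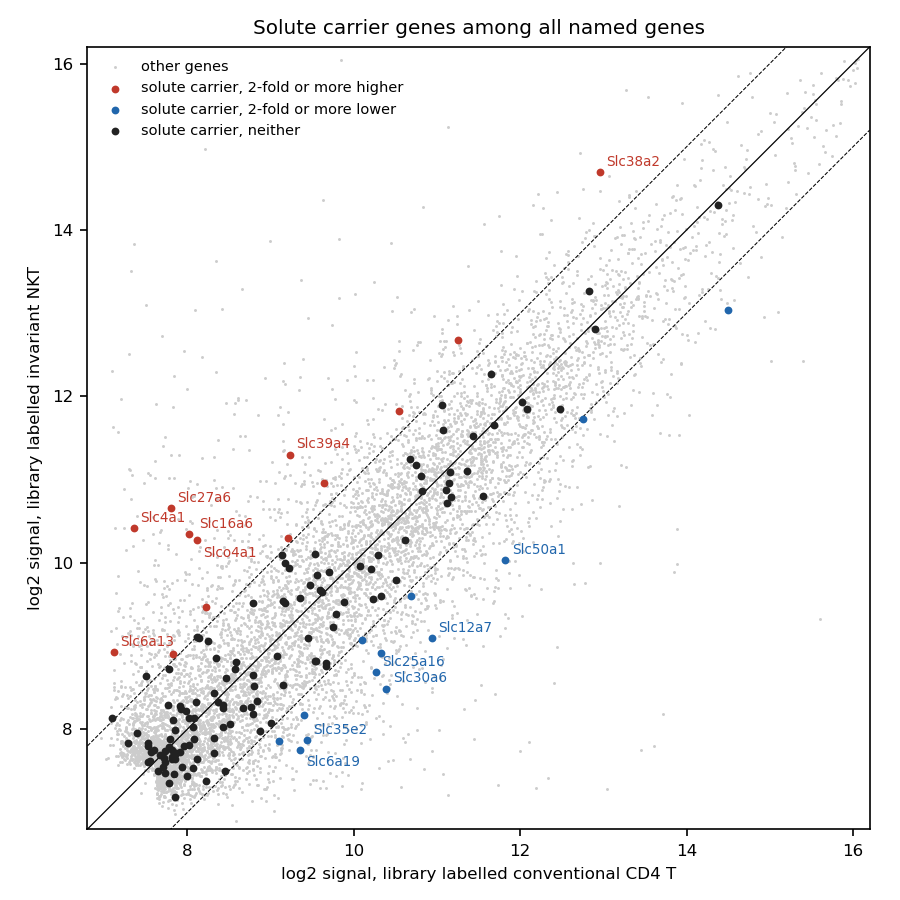
Log2 signal of each named gene in the NKT-labelled library (vertical axis) and in the CD4-labelled library (horizontal axis), with 151 solute carrier genes in red, blue and black over all other genes in grey. The solid line marks equal signals and the dashed lines a 2-fold difference. Red points are the 13 genes 2-fold or more higher and blue points the 13 lower, and a black point outside the lines is a gene whose lower bound is under 2-fold.

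Among the sugar transporters the plasma membrane glucose carriers were brighter in the NKT-labelled library. Slc2a3, which encodes the high-affinity glucose transporter GLUT3, had a log2 signal of 12.67 in the NKT-labelled library and 11.25 in the CD4-labelled library, a difference of 1.42 or 2.68-fold. Slc2a1, which encodes GLUT1, the glucose transporter found on most cells, measured 11.89 in the NKT-labelled library and 11.06 in the CD4-labelled library, a difference of 0.83 that stayed under 2-fold. Slc2a8, a glucose transporter of intracellular membranes, measured 9.47 in the NKT-labelled library and 8.22 in the CD4-labelled library (1.25). Of its other probes, 1 was detected only in the NKT-labelled library and 1 in neither library, and the mean difference over the 3 was 0.80, under 2-fold. Thus 2 of the 4 detected Slc2 genes were 2-fold or more higher and 0 lower, beside 9.37% and 10.3% of all genes. Slc2a9, a urate transporter, was detected only in the CD4-labelled library, at 7.65 in the NKT-labelled library and 8.12 in the CD4-labelled library. The remaining Slc2 genes, Slc2a6 and Slc2a10, were undetected.

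Sugar carriers outside Slc2 lay on both sides of 0. Slc50a1, the mammalian member of the SWEET sugar transporters, measured 10.03 in the NKT-labelled library and 11.82 in the CD4-labelled library, a difference of -1.79. Slc37a1, a glucose 6-phosphate carrier of the endoplasmic reticulum, measured 8.82 in the NKT-labelled library and 9.54 in the CD4-labelled library (-0.72). Slc37a4, the glucose 6-phosphate translocase, was at 7.19 in the NKT-labelled library and 7.85 in the CD4-labelled library, where it only just reached detection. Slc45a4, a relative of plant sucrose transporters, was brighter but short of 2-fold, at 9.10 in the NKT-labelled library and 8.14 in the CD4-labelled library (0.95), and Slc37a3 differed by 0.23. Over the 9 detected genes of the class the median difference was 0.23, with 2 genes 2-fold or more higher and 1 lower. Of 5 measured regulators of sugar uptake and phosphorylation, 0 were 2-fold apart. Hk2, which traps glucose in the cell, differed by 0.53 and Txnip, an inhibitor of glucose uptake, by -0.09.

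Amino acid and peptide transporters lay on both sides of 0. Slc1a5, the glutamine and neutral amino acid transporter ASCT2, was detected only in the NKT-labelled library, with 8.64 there and 7.51 in the CD4-labelled library. That is at least 1.75-fold against the detection level, and its second probe was likewise detected only in that library, at 8.52 in the NKT-labelled library and 7.57 in the CD4-labelled library. Slc7a5, the large neutral amino acid transporter LAT1, was nearly level at 11.11 in the NKT-labelled library and 11.37 in the CD4-labelled library (-0.26). The related exchanger Slc7a6 measured 7.85 in the NKT-labelled library and 9.10 in the CD4-labelled library, a difference of -1.25. The other 2 detected Slc7 transporters, Slc7a4 and Slc7a7, reached the detection level only in the CD4-labelled library and lay close to it in both.

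Slc38a2, the amino acid transporter SNAT2 whose transcript is known to increase when amino acids are short, gave opposite answers from its probes. The brightest measured 14.70 in the NKT-labelled library and 12.96 in the CD4-labelled library (1.74), while the other measured 9.48 in the NKT-labelled library and 10.73 in the CD4-labelled library (-1.25). Their mean difference was 0.24, so no direction can be given for this gene. Slc38a9, the lysosomal arginine sensor of the mTORC1 pathway, measured 8.18 in the NKT-labelled library and 8.79 in the CD4-labelled library (-0.61), and its second probe differed by -0.41.

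Other members of the class include carriers of GABA, taurine and peptides. Slc6a13, a transporter of GABA and taurine, was detected only in the NKT-labelled library, at 8.93 against 7.12 in the CD4-labelled library, or at least 2.13-fold. Slc6a19, the neutral amino acid transporter of gut and kidney, was detected only in the CD4-labelled library, at 7.76 in the NKT-labelled library against 9.36 in the CD4-labelled library, or at least 2.87-fold lower. The taurine transporter Slc6a6 was close to equal, at 11.85 in the NKT-labelled library and 12.08 in the CD4-labelled library. The peptide transporter Slc15a2 differed by -0.93, and the 2 probes of the lysosomal histidine and peptide transporter Slc15a4 differed by 0.34 and -0.34. In all, 2 of 20 detected genes were 2-fold or more higher and 2 lower, and the median was -0.18. Apart from those named, the detected genes lay between -0.90 for Slc66a2, a lysosomal cystine and lysine family member, and 0.55 for Slc32a1, the vesicular GABA transporter.

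Genes that sense or answer amino acid supply were counted beside the carriers. Of 14 detected, 4 were 2-fold or more higher in the NKT-labelled library and 0 lower, beside 9.37% and 10.3% of all genes. Atf4, the transcription factor of the amino acid response, measured 12.53 in the NKT-labelled library and 11.20 in the CD4-labelled library (1.34). Its target Ddit3 measured 11.97 in the NKT-labelled library and 9.77 in the CD4-labelled library (2.20), although the second probe differed by only 0.25. Ddit4, an inhibitor of mTORC1, measured 11.72 in the NKT-labelled library and 9.64 in the CD4-labelled library (2.08), and Lamtor4, a subunit of the complex that anchors mTORC1 regulators to lysosomes, differed by 1.35. Mtor and Rheb were near equal, at -0.06 and 0.01.

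**Figure D2:**
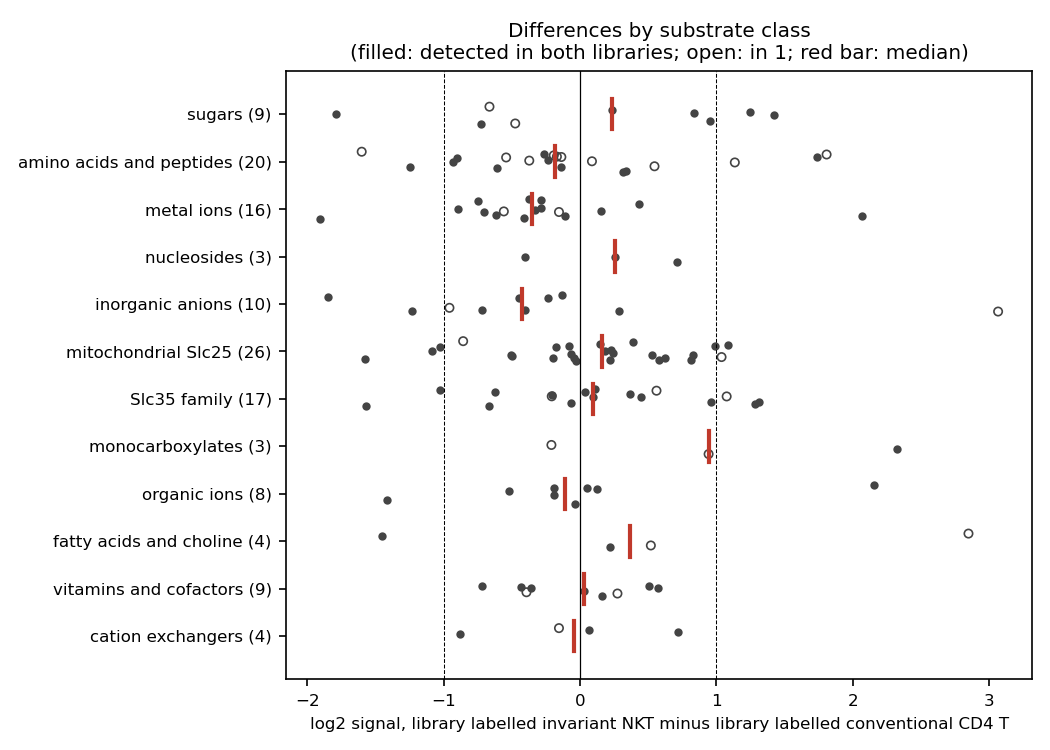
Difference in log2 signal (NKT-labelled minus CD4-labelled library) of detected solute carrier genes, grouped by substrate class with the number of genes in brackets. Slc14a1 and the symbols of no transporter, all below 0, are not drawn. Filled points were detected in both libraries and open points in 1, red bars are class medians, and dashed lines mark a 2-fold difference. Metal ion genes centre at -0.35 and inorganic anion genes at -0.42, and most classes hold genes on both sides of 0.

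Among metal ion transporters, 13 of 16 detected genes lay below 0, beside 3917 of 7278 among all genes detected. Only Slc30a6 was 2-fold or more lower, and only Slc39a4 2-fold or more higher. The zinc transporters of the Slc30 family, most of which lower zinc in the cytosol, were all below 0. Their median was -0.61 over 5 genes. Slc30a6 measured 8.49 in the NKT-labelled library and 10.39 in the CD4-labelled library, a difference of -1.90. It acts as a pair with Slc30a5, which loads zinc into the secretory pathway. Slc30a5 measured 10.81 in the NKT-labelled library and 11.55 in the CD4-labelled library, and its 2 probes differed by -0.75 and -0.79. Slc30a1, the zinc exporter of the plasma membrane, measured 8.54 in the NKT-labelled library and 9.15 in the CD4-labelled library (-0.61). For the Golgi transporter Slc30a7 the probes disagreed in size, at -0.11 for the brightest and -1.60 for the other. Slc30a9 was detected only in the CD4-labelled library, at 7.44 in the NKT-labelled library and 7.99 in the CD4-labelled library.

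The promoters of the exporter of the plasma membrane and of the paired secretory transporters are shown because these genes lay below 0 together and because Slc30a1 is a known target of the zinc-sensing factor MTF1. The sequences are the 250 bases before the gene start in RefSeq on GRCm38.p6, 5′ to 3′ on the gene's strand, at chr1:191906531-191906780 on the plus strand for Slc30a1, chr13:100833428-100833677 on the minus strand for Slc30a5 and chr17:74395358-74395607 on the plus strand for Slc30a6. Capitals mark the metal response element core, searched on both strands as TGCACNC and TGCGCNC.
Slc30a1: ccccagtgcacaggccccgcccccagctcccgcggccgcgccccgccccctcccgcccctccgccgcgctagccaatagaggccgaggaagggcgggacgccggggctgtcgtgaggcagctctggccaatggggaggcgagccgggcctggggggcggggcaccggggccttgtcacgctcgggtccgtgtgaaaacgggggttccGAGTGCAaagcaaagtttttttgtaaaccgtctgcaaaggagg
Slc30a5: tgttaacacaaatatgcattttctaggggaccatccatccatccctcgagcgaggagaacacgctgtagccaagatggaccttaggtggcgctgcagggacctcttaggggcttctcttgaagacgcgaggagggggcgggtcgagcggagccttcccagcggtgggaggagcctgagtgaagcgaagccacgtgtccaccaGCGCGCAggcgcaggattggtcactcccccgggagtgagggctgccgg
Slc30a6: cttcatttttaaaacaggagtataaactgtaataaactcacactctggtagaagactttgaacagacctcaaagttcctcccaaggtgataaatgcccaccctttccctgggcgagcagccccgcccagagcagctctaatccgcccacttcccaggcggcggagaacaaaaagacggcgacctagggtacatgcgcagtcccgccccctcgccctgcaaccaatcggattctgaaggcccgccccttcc

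The core occurred 1 time each in the Slc30a1 and Slc30a5 windows, in reverse orientation, and 0 times in the Slc30a6 window and in those of Slc30a7 and Slc30a9. It was present in 21.4% of all 32851 promoter windows of the same length, in 27.2% of the 162 windows of the 120 solute carrier genes with an entry, and in 8 of 16 windows of metal ion genes. A match is a stretch of letters and not evidence of binding. The GC box GGGCGG, searched on both strands, occurred 5 times before Slc30a1, 1 time before Slc30a5 and 4 times before Slc30a6. It was found in 64.8% of the solute carrier windows, beside 32.7% of all windows. Windows of the other genes on the value table were not counted apart. Neither motif's share is therefore shown to be particular to solute carriers or metal ion genes.

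The Slc39 family, which raises zinc in the cytosol, was more mixed. Slc39a4, the zinc importer best known from the gut, measured 11.30 in the NKT-labelled library and 9.24 in the CD4-labelled library, a difference of 2.07 from 1 probe. Slc39a6, another plasma membrane importer, measured 11.18 in the NKT-labelled library and 10.74 in the CD4-labelled library (0.44). Slc39a7, which releases zinc from the endoplasmic reticulum, differed by -0.37, -0.21 and 0.32 at its 3 probes, and Slc39a3 by -0.89 and 0.23 at its 2. Slc39a11 and Slc39a13, importers of internal membranes, differed by -0.33 and -0.28. Of the 6 detected Slc39 genes, 1 was 2-fold or more higher and 0 were lower.

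The iron and copper carriers of this class were all dimmer and none was 2-fold apart. Slc11a1, the divalent metal transporter of phagosomes, measured 8.82 in the NKT-labelled library and 9.53 in the CD4-labelled library (-0.71). Slc11a2, which imports iron from endosomes, measured 9.93 in the NKT-labelled library and 10.21 in the CD4-labelled library (-0.28). The copper importer Slc31a1 measured 8.26 in the NKT-labelled library and 8.67 in the CD4-labelled library (-0.41), and its relative Slc31a2 reached detection only in the CD4-labelled library. Among 11 detected genes of iron, zinc and copper handling, 1 was 2-fold or more higher and 1 lower. The metallothionein Mt1, a zinc-binding protein and another MTF1 target, was detected only in the NKT-labelled library, at 11.51 against 7.73 in the CD4-labelled library. The RNA-binding iron chaperone Pcbp2 differed by -1.15, and the transferrin receptor Tfrc by -0.26. Mtf1 itself was detected in neither library.

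None of the 3 detected nucleoside transporters was 2-fold apart. Slc28a2, which takes up purine nucleosides together with sodium, measured 9.94 in the NKT-labelled library and 9.23 in the CD4-labelled library (0.71). The equilibrative transporters went opposite ways by small amounts, with Slc29a1 of the plasma membrane at 9.38 in the NKT-labelled library and 9.78 in the CD4-labelled library (-0.40) and the lysosomal Slc29a3 at 9.73 in the NKT-labelled library and 9.47 in the CD4-labelled library (0.26). Some enzymes that use nucleosides differed by more. Ada, adenosine deaminase, measured 9.42 in the NKT-labelled library and 8.03 in the CD4-labelled library (1.39), and Pnp, purine nucleoside phosphorylase, measured 11.72 in the NKT-labelled library and 10.16 in the CD4-labelled library (1.56). Adk, the adenosine kinase, was lower at both of its probes, by -1.28 and -1.20. Tk1, thymidine kinase, was detected only in the NKT-labelled library, at its brightest probe (1.55). Its second probe differed by 0.16 and lay below detection in both libraries. In all, 3 of 11 detected genes of nucleoside metabolism were 2-fold or more higher and 1 lower, beside 9.37% and 10.3% of all genes.

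Inorganic anion transporters lay mostly below 0, in 8 of 10 detected genes, beside 3917 of 7278 among all genes detected. Slc12a7, which exports potassium and chloride, measured 9.09 in the NKT-labelled library and 10.94 in the CD4-labelled library, a difference of -1.85. Slc12a2, which imports sodium, potassium and chloride, was dimmer at both probes, by -0.72 and -0.24. The phosphate importers were dimmer as well. Slc20a2 measured 8.17 in the NKT-labelled library and 9.40 in the CD4-labelled library (-1.23), and Slc20a1 was detected only in the CD4-labelled library, at 7.50 in the NKT-labelled library against 8.46 in the CD4-labelled library. The bicarbonate transporter Slc4a8 differed by -0.45 and 0.08 at its 2 probes and the anion exchanger Slc26a6 by -0.40. Slc12a3, the sodium-chloride cotransporter known from kidney, differed by 0.29 at its brightest probe, and its second probe was below detection in both libraries. The anion exchanger Slc4a2 was close to equal, at 10.88 in the NKT-labelled library and 11.11 in the CD4-labelled library. Pumps and regulators that set the ion gradients also differed. Of 9 detected, 2 were 2-fold or more higher and 3 lower, and the sodium pump subunits Atp1b1 and Atp1b3 differed by -2.67 and -1.98. Wnk1, a kinase that controls Slc12 transporters, differed by -1.46 at its brightest probe and by 1.13 and 0.65 at the others. Atp2b1 and Stk39 passed 2-fold in the opposite direction, each with 1 probe. Atp2b1 measured 9.06 in the NKT-labelled library and 7.98 in the CD4-labelled library (1.08). Stk39 measured 10.06 in the NKT-labelled library and 8.99 in the CD4-labelled library (1.07).

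Slc4a1 stood apart from this class. It encodes band 3, the anion exchanger of the red cell, and was detected only in the NKT-labelled library, with 10.42 there and 7.35 in the CD4-labelled library, or at least 6.01-fold. Red cell genes were brighter in the same library. Of 8 listed red cell markers, 3 were on the table. Their summed linear signal was 73427 in the NKT-labelled library and 1281 in the CD4-labelled library. Hba-a1 measured 16.04 in the NKT-labelled library and 9.84 in the CD4-labelled library, Alas2 measured 12.51 in the NKT-labelled library and 7.30 in the CD4-labelled library, and Ermap was detected in neither. The part of red cells in the Slc4a1 value was not tested.

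**Figure D3:**
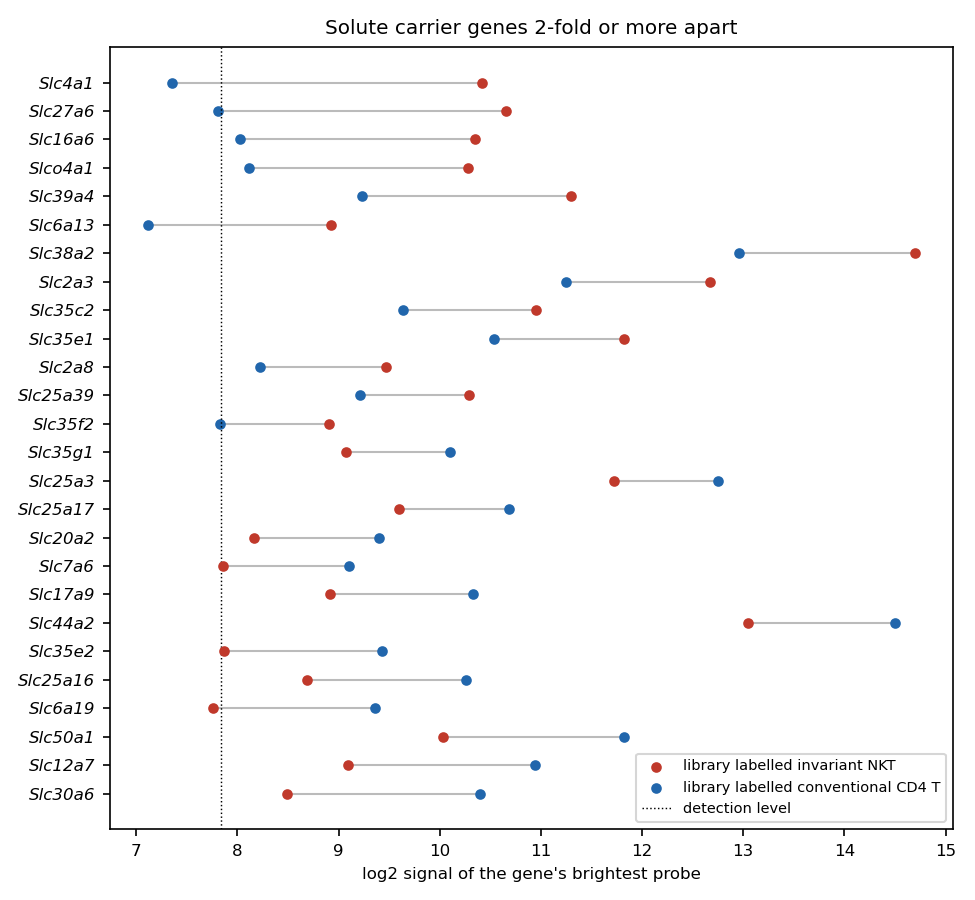
Log2 signal of the brightest probe of the 26 solute carrier genes 2-fold or more apart, in the NKT-labelled library (red) and the CD4-labelled library (blue), ordered by difference. The dotted line is the detection level of 7.83. Slc4a1 and Slc27a6 have the widest gaps above, and Slc30a6, Slc12a7 and Slc50a1 the widest in the lower part.

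The mitochondrial Slc25 family was the largest class, with 26 of 28 genes detected. Of these, 1 was 2-fold or more higher and 3 lower, and the median was 0.16, with 14 genes above 0 and 12 below. Slc25a3, which imports the phosphate needed for ATP synthesis, measured 11.73 in the NKT-labelled library and 12.75 in the CD4-labelled library. It was the 1 member with several probes called by both of its brightest, at -1.02 and -1.03. The ADP and ATP exchanger Slc25a5 was equal within 0.07, at 14.31 in the NKT-labelled library and 14.37 in the CD4-labelled library. Slc25a16, a carrier linked to coenzyme A, measured 8.68 in the NKT-labelled library and 10.26 in the CD4-labelled library (-1.58), and Slc25a42, which imports coenzyme A, was detected only in the CD4-labelled library, at 7.37 in the NKT-labelled library against 8.23 in the CD4-labelled library. Slc25a17, a family member of the peroxisome, measured 9.60 in the NKT-labelled library and 10.68 in the CD4-labelled library (-1.08).

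Slc25a39, which imports glutathione, measured 10.29 in the NKT-labelled library and 9.21 in the CD4-labelled library (1.08). At their brightest probes the carriers of carboxylic acids lay above 0 without passing 2-fold. Slc25a1, which exports citrate for lipid synthesis, was higher at both probes, by 0.83 and 0.69. Slc25a10, the dicarboxylate carrier, differed by 0.99, just short of 2-fold, at 9.11 in the NKT-labelled library and 8.12 in the CD4-labelled library. Slc25a11, the oxoglutarate carrier of the malate-aspartate shuttle, differed by 0.53 at its brightest probe but by -0.26 and 0.38 at the others. Slc25a20, the carnitine and acylcarnitine exchanger of fatty acid oxidation, was higher at both probes, by 0.24 and 0.55. The iron importer Slc25a28 measured 12.27 in the NKT-labelled library and 11.65 in the CD4-labelled library (0.62). The glycine carrier Slc25a38, which serves haem synthesis, was near equal at its brightest probe (-0.08).

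Of the remaining Slc25 genes, none reached the 2-fold size used for calls. Slc25a36, a pyrimidine nucleotide carrier, measured 10.11 in the NKT-labelled library and 9.53 in the CD4-labelled library (0.58), and its relative Slc25a33 differed by 0.22. Slc25a12, the aspartate and glutamate exchanger of the malate-aspartate shuttle, measured 9.88 in the NKT-labelled library and 9.70 in the CD4-labelled library (0.18). Slc25a44, which carries branched-chain amino acids into mitochondria, differed by 0.23. Slc25a32 and Slc25a26, which bring folate and S-adenosylmethionine to the one-carbon reactions of the matrix, differed by -0.50 and -0.49. Slc25a30, a relative of the uncoupling proteins, measured 9.06 in the NKT-labelled library and 8.25 in the CD4-labelled library (0.82), and Slc25a53 was detected only in the NKT-labelled library, at 8.14 against 7.10 in the CD4-labelled library, or at least 1.23-fold.

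Genes that work with these carriers and with lactate transporters included 1 of 8 that was 2-fold or more higher and 1 that was lower. Emb, which encodes embigin, a chaperone of monocarboxylate transporters, measured 9.74 in the NKT-labelled library and 12.65 in the CD4-labelled library (-2.91). Mtch2, an outer membrane relative of the Slc25 family, differed by 1.99 at its brightest probe and by -0.97 and -0.82 at its others, so its direction depended on the probe. Ldha, lactate dehydrogenase, differed by 0.19.

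In the Slc35 family, 3 of 17 detected genes were 2-fold or more higher and 2 lower, with a median of 0.10. Among all genes detected the shares were 9.37% and 10.3%. Slc35c2, a Golgi member that promotes fucosylation of Notch, measured 10.95 in the NKT-labelled library and 9.64 in the CD4-labelled library (1.31), and its other probes were higher by 0.82 and 0.38. The GDP-fucose transporter Slc35c1 measured 13.27 in the NKT-labelled library and 12.82 in the CD4-labelled library at its brightest probe (0.45) and differed by -0.08 at the other. Slc35a1, which supplies CMP-sialic acid to the Golgi, measured 9.56 in the NKT-labelled library and 10.23 in the CD4-labelled library (-0.66) at its brightest probe, while its second probe, close to the detection level, differed by 0.15. Slc35b3, which supplies the sulfate donor PAPS, differed by -0.62, -0.74 and -0.03 at its 3 probes. The UDP-galactose transporter Slc35a2 and the UDP-N-acetylglucosamine transporter Slc35a3 differed by 0.37 and 0.11. Slc35b1, which brings ATP into the endoplasmic reticulum, and Slc35b4, a carrier of UDP-sugars, were near equal at -0.07 and 0.04.

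The other Slc35 genes past 2-fold have less settled substrates. Slc35e1 measured 11.82 in the NKT-labelled library and 10.54 in the CD4-labelled library (1.28). Slc35f2 was detected only in the NKT-labelled library, at 8.91 against 7.83 in the CD4-labelled library, or at least 2.11-fold. Slc35e2 measured 7.87 in the NKT-labelled library and 9.43 in the CD4-labelled library (-1.57), with -0.49 at its second probe, and Slc35g1 measured 9.08 in the NKT-labelled library and 10.10 in the CD4-labelled library (-1.02). Slc35e3 was just short of 2-fold, at 0.96. The other 4 detected members, Slc35a4, Slc35a5, Slc35d1 and Slc35f3, lay between -0.21 and 0.56.

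Several of the widest differences came from single members of small classes. Slc27a6, of the fatty acid transport proteins and known mainly from heart, was detected only in the NKT-labelled library, at 10.66 against 7.81 in the CD4-labelled library, or at least 7.08-fold. Its relatives Slc27a1 and Slc27a4 differed by 0.52 and 0.22. Slc16a6, of the monocarboxylate transporter family, measured 10.35 in the NKT-labelled library and 8.02 in the CD4-labelled library (2.33). The second brightest probe differed by -0.44, at 8.53 in the NKT-labelled library and 8.97 in the CD4-labelled library. The third was detected only in the NKT-labelled library, at 9.57 against 7.30 in the CD4-labelled library. The lactate exporter Slc16a3 barely reached detection in the CD4-labelled library, at 7.85, and lay at 7.64 in the NKT-labelled library. Slc16a10, which carries aromatic amino acids, was detected only in the NKT-labelled library, at 8.72 against 7.78 in the CD4-labelled library.

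Slco4a1, an organic anion and thyroid hormone transporter, measured 10.28 in the NKT-labelled library and 8.12 in the CD4-labelled library (2.16), but its second probe measured 7.35 in the NKT-labelled library and 7.63 in the CD4-labelled library and lay below detection in both. Slc17a9, which loads ATP into vesicles for release, measured 8.91 in the NKT-labelled library and 10.32 in the CD4-labelled library (-1.41). The carnitine importer Slc22a5 differed by -0.19, 0.34 and 0.72 at its 3 probes. Slco3a1, a transporter of organic anions and prostaglandins, differed by -0.52, 0.01 and -1.13 at its probes, and Slc10a3, Slc10a7 and Slc17a5 lay between -0.19 and 0.06.

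None of the 9 detected transporters of vitamins and cofactors and none of the 4 detected cation exchangers was 2-fold apart. Among them the folate carrier Slc19a1 was near equal (0.03), the haem transporter Slc48a1 differed by -0.72, and the lysosomal Slc46a3 by 0.57. The riboflavin transporter Slc52a3 measured 8.86 in the NKT-labelled library and 8.35 in the CD4-labelled library (0.51), the thiamine transporter Slc19a2 differed by 0.16 and the biotin and pantothenate transporter Slc5a6 by -0.36. The organellar sodium-proton exchangers went opposite ways, with Slc9a9 of endosomes at 0.72 and Slc9a8 of the Golgi at -0.88, although a second probe of Slc9a8 differed by 0.66. Slc8b1, the mitochondrial exchanger of sodium and calcium, was near equal (0.07).

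Slc44a2, a choline transporter-like protein, was the member whose probes disagreed most. The brightest measured 13.04 in the NKT-labelled library and 14.50 in the CD4-labelled library (-1.45), a second measured 10.14 in the NKT-labelled library and 8.30 in the CD4-labelled library (1.84), and the third measured 9.97 in the NKT-labelled library and 9.87 in the CD4-labelled library (0.10). Over the 37 genes with several probes, the brightest pair differed by more than 1 in 8 genes and in sign in 19. Of the 8 such genes called at the brightest probe, 1 was called the same way at the second and 1, Slc38a2, was called the opposite way. For all genes the same count was 163 of 433. The remaining 114 members had 1 probe and no such check, and Slc2a3, Slc39a4, Slc27a6, Slc30a6, Slc12a7 and Slc50a1 were among them.

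**Figure D4:**
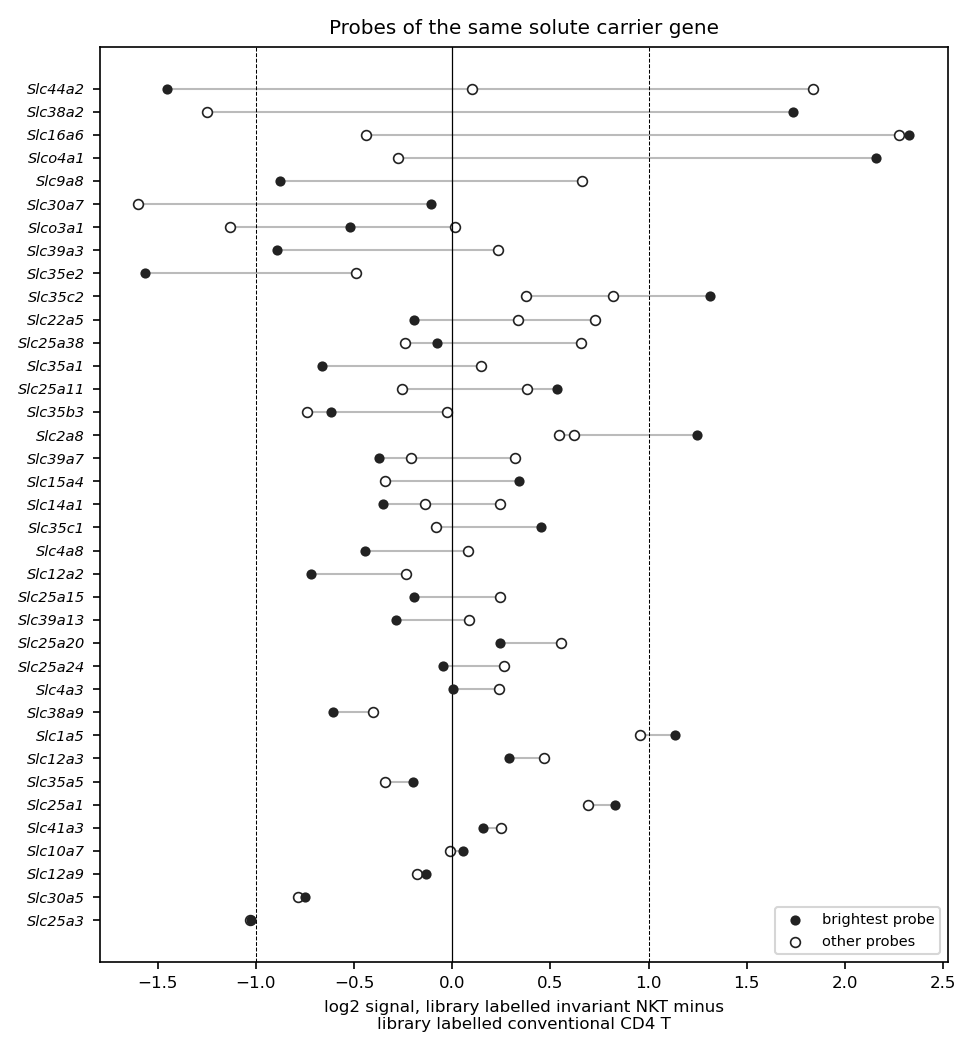
Difference in log2 signal (NKT-labelled minus CD4-labelled library) at each probe of the 37 solute carrier genes with several probes, ordered by the spread between them. Filled points are the brightest probe and open points the others, and dashed lines mark 2-fold. Slc44a2, Slc38a2, Slc16a6 and Slco4a1 span both sides of 0, while the probes of Slc25a3 and Slc30a5 coincide within 0.04.

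Markers of other cell types were set beside the carriers. All 9 hepatocyte genes on the table, of 12 listed, were detected only in the NKT-labelled library, 7 of them at least 2-fold, with a summed linear signal of 14224 there and 1344 in the CD4-labelled library. Some solute carriers are known mainly from liver, and 3 of them, chosen after their values were seen, lay near the detection level. The liver carrier Slc25a47 differed by 0.15 and the organic anion transporter Slc22a7 by 0.12. The amino acid transporter Slc38a4 measured 7.53 in the NKT-labelled library and 8.07 in the CD4-labelled library. Slc6a13, which the liver also expresses, was brighter as given above, and the part of liver RNA in its value was not tested. Of 6 neutrophil markers, 5 were detected only in the NKT-labelled library and 1, S100a8, was at least 2-fold higher. Of 5 monocyte and macrophage markers on the table, 2 were 2-fold or more higher and 1, Ctss, was lower. The higher ones were Cebpb (2.43) and Lyz2, which differed by 1.94 at its brightest probe and by -0.52 at the other. Cd14 and Fcgr3 were detected in neither library. The summed linear signal of these markers was 19943 in the NKT-labelled library and 4509 in the CD4-labelled library. Most of it came from Cebpb, at a log2 signal of 14.17 in the NKT-labelled library and 11.74 in the CD4-labelled library. Of 3 B cell markers, 1 was 2-fold or more lower. The part of these cells in the other transporter values was not tested.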

How the data were processed

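RNA of 2 sorted populations was measured on 1 Illumina bead array each, grouped by the cell type in the labels. GenomeStudio 2009.2 was used, per the submitters' processing notes. The later normalisation has a method not given in the sources used here. Log2 signals of 11866 probes were deposited in the value table, and its columns share a median of 9.07, as after quantile normalisation. A second deposited table holds, per the file headers, an intensity and a detection p-value for 25697 probes, besides 2 lines without a probe, which were left out. Across probes, the NKT-labelled values followed their own intensity column with a Spearman's rho of 0.822 and the CD4-labelled column with 0.823, whereas the CD4-labelled values matched their column (rho 1). Which table holds the true signals of the NKT-labelled sample is unknown.

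Genes were named from the platform annotation, and all 151 gene identifiers were found in RefSeq for GRCm38.p6, which also gave the promoters. Calls were made by size, with no p-value, by code tested on simulated data. The alternatives were neqc (limma 3.58.1, R 4.3.3, offset 16) on the intensities, other detection filters, the mean of a gene's probes, background subtraction with a floor of 16, centring on all genes, 1.5-fold and 3-fold. Members, classes, lists and the naming rule were chosen with earlier results of these data known, and the classes of Slc4a1ap and Slc14a1 were set after the files were seen. The rule named members 2-fold or more apart, members whose probes disagree by more than 1, a list of known transporters, and listed pathway genes 2-fold or more apart. Any other gene named was chosen after its values were seen.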

Additional observations from a re-analysis of the deposited data

Results flagged for a closer look

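Of the solute carrier genes below the detection level in the NKT-labelled column of the value table, 12 had a probe with a detection p under 0.01 in the second non-normalized column, the one given for the NKT-labelled sample. The differences in the report do not draw on that column, which entered only the check between tables and the neqc alternative. These genes drew attention because that column lay outside the main measurement. They were Slc20a1, Slc23a2, Slc25a29, Slc25a42, Slc2a9, Slc30a9, Slc38a4, Slc4a3, Slc6a19, Slc7a6os, Slc7a7 and Slc8a1. The NKT-labelled values followed that column no more closely (rho 0.822) than the CD4-labelled column (rho 0.823). The non-normalized columns of the libraries differed by at most 0.62 on the log2 scale at any probe. A detection there is therefore no evidence of signal missed in the NKT-labelled library. The tables also conflicted the other way, for members called higher and detected only in the NKT-labelled library. In that column the detection p was 0.82 for Slc4a1, 0.70 for Slc6a13 and 0.015 for Slc35f2, and under 0.01 only for Slc27a6 (0.005). Their detection here, and the bounds on their folds, rest on the level taken from the CD4-labelled library.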

How the results depend on the processing

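The counts of 13 higher and 13 lower solute carriers depended on the table and the size asked for. With neqc on the non-normalized signals both counts were 0, as they were for all 6845 genes detected there. With background subtracted they were 27 and 32, beside 17.8% and 20.9% of all genes, at 1.5-fold 24 and 27, and at 3-fold 6 and 3. Where the brightest pair of probes had to agree, a rule chosen after the data were seen, they were 0 and 1. Of the 26 genes, 18 have 1 probe and drop out by construction, so only 8 could be checked. Averaging all probes per gene gave 9 and 12. The calls lost were Slc2a8, Slc35c2, Slc38a2 and Slco4a1 among the higher genes and Slc44a2 among the lower, whose mean difference was 0.16. The counts stayed within 1.5 times under the other settings: a detection p under 0.05, no detection filter, genes detected in both libraries, centring on all genes, and leaving out the 3 symbols of no transporter. Class medians moved by more than the spread between probes, 0.71, only in small classes. That spread is wider than every class median but that of the monocarboxylate transporters, so a median could reach 0 without counting as moved. With neqc the median of anion transporters went from -0.42 to 0.01 and that of metal ion transporters from -0.35 to -0.02. The sugar median went from 0.23 to -0.05 and the Slc25 median from 0.16 to -0.02. The median of fatty acid and choline transporters, 0.37 over 4 genes, was 1.55 with background subtracted and -0.62 over genes detected in both libraries. The median of monocarboxylate transporters, 0.94 over 3 genes, was 0.14 with neqc, 3.32 with background subtracted and 2.33 over the gene detected in both libraries. No leaving out of a library and no paired analysis was possible because each group had 1 array. The cause of these shifts was not tested. Background left in array signals can make the folds of dim genes too small, and whether it did so here was not tested.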

Other observations

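Transport genes outside the solute carrier families were counted by symbol after the data were seen. For scale, 9.37% of all genes detected were 2-fold or more higher and 10.3% lower. Among 17 detected ABC transporters, 1 was 2-fold or more higher in the NKT-labelled library and 4 were lower. Abcg1, which exports cholesterol, measured 9.16 in the NKT-labelled library and 10.51 in the CD4-labelled library (-1.35), and Abcb1b, a multidrug transporter, was detected only in the CD4-labelled library, at 7.75 in the NKT-labelled library against 9.55 in the CD4-labelled library. Of 14 detected subunits of the proton pump that acidifies lysosomes, 2 were 2-fold or more higher and 0 lower. Atp6v1g1 measured 10.28 in the NKT-labelled library and 8.21 in the CD4-labelled library (2.07), and Atp6v0a2 measured 11.91 in the NKT-labelled library and 10.50 in the CD4-labelled library (1.41).

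Potassium channels showed 1 of 9 detected genes 2-fold or more higher and 3 lower. Kcnk5, a background potassium channel, was detected only in the NKT-labelled library at both of its probes, by 3.70 and 1.35 above the CD4-labelled library in measured signal. Kcnn4, the calcium-activated potassium channel of T cells, measured 9.44 in the NKT-labelled library and 10.85 in the CD4-labelled library (-1.41). Of 16 detected subunits of the mitochondrial protein import machinery, 1 was 2-fold or more higher and 2 lower. Of 17 detected P-type ATPase genes, counted with Atp1b1 and Atp1b3 given above, 2 were 2-fold or more higher and 4 lower. Among 3 detected aquaporins, 1 was 2-fold or more higher and 1, Aqp3, was lower (-1.33). Aqp9 measured 13.05 in the NKT-labelled library and 8.42 in the CD4-labelled library (4.64).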
